A study of Oncorhynchus tshawytscha with 17 samples.

Results

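A set of 7 genes of the enterocyte brush border was followed across the hindgut of 17 Chinook salmon (Oncorhynchus tshawytscha). They were taken by gene identifier from the deposited count table, where they are 7 of 42554 identified genes, and all 7 were among the 30221 genes abundant enough to be tested. They are vil1 (villin 1), the adhesion proteins cdhr2 (LOC112220688) and cdhr5b (LOC112222091), the peptidases mep1a.2 (LOC112250368), mep1bb (LOC112260582) and anpepa (LOC112218554), and the phosphatase alpi.2 (LOC112251963). The fish were diploid. They comprised 6 controls, 5 fish given antibiotics for 10 days and 6 fish given probiotics for 10 days, and the comparison addresses how host gene expression differs with treatment of the gut microbiota. The sources used here do not give the drugs, bacterial strains and doses, or the age of the fish. Each library is 1 fish as far as the titles show, named here by treatment (ctl, abx, pro) and by the number and letter of its title. Titles carry 2 numbers per treatment, ctl12 and ctl35 for controls, abx67 and abx91 for antibiotic fish and pro115 and pro139 for probiotic fish, and what the numbers stand for is not stated.

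The brush border is the layer of microvilli on the luminal face of absorptive enterocytes. Each microvillus is a bundle of actin filaments held together by proteins such as villin, and in mammals neighbouring microvilli are tied at their tips by the protocadherins CDHR2 and CDHR5. Digestive enzymes sit in the microvillar membrane with their active sites facing the lumen. Meprins are zinc metalloproteases of the astacin family, aminopeptidase N removes amino acids from the N-terminal end of peptides, and intestinal alkaline phosphatase removes phosphate groups, including those of bacterial lipopolysaccharide. In zebrafish, intestinal alkaline phosphatase is known for its link with the gut microbiota.

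In the coordinates of the deposited table, vil1 spans positions 9900672 to 9925479 of sequence NC_037122.1 on the plus strand, with 22 exon blocks and an exonic length of 3698 bases. The adhesion gene cdhr2 spans 36912492 to 36925955 of NC_037117.1 on the plus strand, and cdhr5b spans 9890313 to 9905863 of NC_037097.1 on the plus strand. The meprin alpha gene mep1a.2 lies at 31548864 to 31558123 of NC_037101.1 on the minus strand, and the meprin beta gene mep1bb lies at 46529467 to 46543276 of NC_037106.1 on the minus strand. The aminopeptidase gene anpepa lies at 26239022 to 26254326 of NC_037115.1 and alpi.2 at 3372627 to 3407164 of NC_037102.1, both on the plus strand. The 7 genes thus lie on 7 different sequences, and their exons overlap those of no other entry in the table. Each family was represented by 1 entry with a matching symbol. Salmonids carry many recent gene copies, and a copy without a symbol could share reads with a member.

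Counts assigned to genes ranged from 28.6 to 61.1 M per library. The members were deeply covered: raw counts per fish ran from 39551 to 133325 for vil1 and from 1103 to 5602 for alpi.2, the scarcest of them. Together they took 0.544 ± 0.0785% (SD, n = 6) of counts in controls, 0.561 ± 0.0718% (n = 5) in antibiotic fish and 0.567 ± 0.0693% (n = 6) in probiotic fish. The labels call the material epithelium. Enterocyte lists were abundant, with summed levels of 15837 to 28259 CPM (normalised counts scaled to a fixed library total) for 12 genes of lysosome-rich enterocytes, but 3 smooth muscle genes also summed to 923 to 3602 CPM, so transcripts of muscle genes were present. In such bulk samples fewer cells of a type and less RNA per cell cannot be told apart.

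Levels were compared between genes as TPM, the share of transcripts after correction for exonic length, scaled to a fixed total. Mean TPM over the 17 fish was highest for vil1, at 903 ± 201 (SD), which placed it at rank 130 of the 30221 tested genes. The peptidase mep1a.2 followed at 692 ± 99.9 TPM, then cdhr2 at 554 ± 203, anpepa at 431 ± 137, mep1bb at 339 ± 35.5 and cdhr5b at 314 ± 51.3. The phosphatase alpi.2 stood apart at 45.7 ± 15.5 TPM, rank 2882. Neighbours in this order overlapped in range except at the last step: cdhr5b exceeded alpi.2 in 17 of 17 fish, whereas vil1 exceeded mep1a.2 in 14 and anpepa exceeded mep1bb in 11. The order rests on the deposited exonic lengths, 1762 bases for cdhr2 against 3672 for anpepa and 3774 for cdhr5b. By mean CPM cdhr2 (559) lay below both anpepa (916) and cdhr5b (679).

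The members also differed in how evenly fish expressed them. The coefficient of variation of CPM over the 17 fish was 14.0% for mep1bb, 14.3% for cdhr5b and 15.6% for mep1a.2. It was 21.7% for vil1, 34.1% for anpepa, 34.3% for alpi.2 and 35.2% for cdhr2. The highest fish exceeded the lowest 4.21-fold for cdhr2 and 4.04-fold for anpepa but 1.60-fold for cdhr5b. Against genes of like level (within 1.5-fold in mean CPM), 11.2% of 196 genes varied more than cdhr2 and 11.9% of 2720 varied more than alpi.2, compared with 77.5% of 209 genes for mep1bb. The 2 meprin subunits and cdhr5b were thus among the steadier genes of their level, and cdhr2, anpepa and alpi.2 among the more variable.

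**Figure D1:**
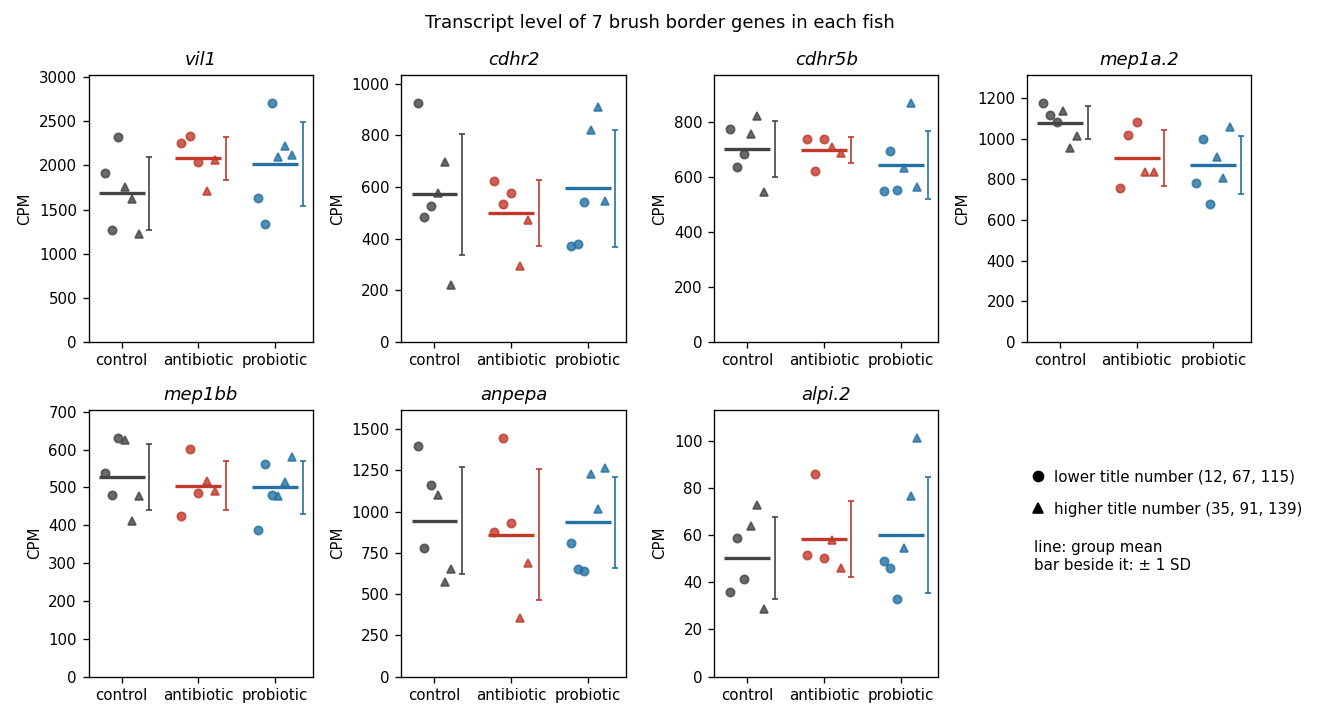
Normalised level (CPM, linear axes starting at 0) of each of the 7 brush border genes; each point is 1 fish, circles and triangles mark the lower and higher title number of a treatment, lines mark group means and bars 1 SD (6 control, 5 antibiotic and 6 probiotic fish). The 3 treatments overlap for every gene, and mep1a.2 has most treated fish below the control points.

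No member was called different between treatments at an adjusted p under 0.05 (edgeR quasi-likelihood F-test, Benjamini-Hochberg over 30221 genes), and no gene of the table was, so that the background of calls was 0% in each of the 3 comparisons. At an unadjusted p under 0.05, 0 of 7 members passed in antibiotic versus control fish, where 6.21% of all tested genes did. In probiotic versus control fish 1 of 7 passed, against 9.71% of all genes, and between the treatments 0 of 7 passed, against 6.05%. DESeq2 and limma-voom also called 0 members. DESeq2 called 0.086%, 0.113% and 0.0761% of all genes in these comparisons, and limma-voom called 0% in each. The intervals below show how large a change each gene could still have had if each fish is independent. What the title numbers stand for is not stated, so that independence is assumed.

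For villin, control fish ran from 1225 through a median of 1686 to 2322 CPM. The 5 antibiotic fish had 2258 (67A), 2338 (67B), 2043 (67C), 1709 (91A) and 2057 CPM (91B), and probiotic fish ran from 1335 through 2107 to 2704 CPM. All 5 antibiotic fish and 4 of 6 probiotic fish lay above the control median, and 1 fish of each treatment lay above every control. The fold difference was 1.24 (95% interval 0.944 to 1.62, adjusted p = 0.836) for antibiotic and 1.20 (0.925 to 1.55, adjusted p = 0.624) for probiotic fish against controls. Between the treatments it was 1.03 (0.787 to 1.35, adjusted p = 0.987). Proliferation markers, 8 tested genes, had higher means with both treatments as well, with summed levels of 50.1 to 362 CPM in controls, 64.9 to 497 in antibiotic and 78.9 to 446 in probiotic fish; their part in the villin values was not tested.

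The adhesion gene cdhr2 ran from 219 through 553 to 924 CPM in controls and from 370 through 544 to 912 CPM in probiotic fish. The antibiotic fish had 622 (67A), 533 (67B), 576 (67C), 295 (91A) and 472 CPM (91B). The 3 groups overlapped widely. The intervals are wide, with a fold of 0.875 (0.557 to 1.37, adjusted p = 0.937) for antibiotic and 1.04 (0.678 to 1.60, adjusted p = 0.962) for probiotic fish against controls. Its partner cdhr5b was measured more tightly, at 701 ± 102 CPM (SD, n = 6) in controls, 697 ± 48.2 (n = 5) in antibiotic fish and 642 ± 124 (n = 6) in probiotic fish. Its fold was 0.995 (0.817 to 1.21, adjusted p = 0.995) and 0.916 (0.759 to 1.11, adjusted p = 0.745), so that for cdhr5b a change of 1.5-fold in either direction lies outside both intervals.

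Among the enzymes, mep1a.2, the alpha subunit of meprin, had the lowest p of the 7 members in both comparisons with controls. Control fish ran from 953 through 1099 to 1174 CPM. The antibiotic fish had 759 (67A), 1018 (67B), 1083 (67C), 835 (91A) and 838 CPM (91B), and probiotic fish ran from 678 through 858 to 1059 CPM. Of the antibiotic fish 3 of 5 lay below every control, as did 4 of 6 probiotic fish, and the other treated fish lay within the control range. The fold was 0.840 (0.696 to 1.01, adjusted p = 0.816) for antibiotic and 0.809 (0.676 to 0.967, adjusted p = 0.473) for probiotic fish by edgeR. Neither passed over all genes, and mep1a.2 in probiotic fish was the 1 member at an unadjusted p under 0.05. The number of all genes at that level, 2935 of 30221 in the main fit, moved with single fish, as did the member count. The member count was 0 without ctl12A (3545 of 30044 genes), pro115A (3156 of 29982) or pro115C (1844 of 30111), each left out alone. It was 2 without ctl12C (4445 of 30026 genes). In antibiotic versus control fish the main fit had 0 members and 1877 of 30221 genes at that level. The member count became 1 without abx67B (1732 of 30623 genes), abx67C (2431 of 30690), ctl12C (2635 of 30026) or ctl35B (1952 of 29929). With all fish of both groups kept it was also 1 with DESeq2 (2108 of 30221 genes) and with upper-quartile normalisation (1893 of 30221). The same held for genes of a mean CPM of at least 1 (1413 of 23316) and with only the 2 groups compared (1855 of 29204). It was again 1 with the index number of the titles (1900 of 30221) or a smooth muscle score (2048 of 30221) as a covariate.

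The beta subunit gene mep1bb stood at 527 ± 87.5 CPM (SD, n = 6) in controls, 504 ± 64.8 (n = 5) in antibiotic fish and 500 ± 69.7 (n = 6) in probiotic fish. Its fold against controls was 0.956 (0.785 to 1.17, adjusted p = 0.952) and 0.948 (0.786 to 1.15, adjusted p = 0.857). The TPM ratio of the alpha to the beta gene was 2.27 ± 0.282 in controls, 1.97 ± 0.267 in antibiotic and 1.91 ± 0.247 in probiotic fish, given as a description because it was chosen after the values were seen.

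Aminopeptidase N, anpepa, ran from 574 through 942 to 1396 CPM in controls and from 640 through 911 to 1268 CPM in probiotic fish. The antibiotic fish had 875 (67A), 1446 (67B), 928 (67C), 358 (91A) and 689 CPM (91B), and so held both the highest and the lowest level of the study. Its fold was 0.909 (0.581 to 1.42, adjusted p = 0.953) and 0.989 (0.646 to 1.51, adjusted p = 0.989) against controls. Alkaline phosphatase, alpi.2, ran from 28.9 through 50.1 to 72.95 CPM in controls and from 32.9 through 51.9 to 101 CPM in probiotic fish. The antibiotic fish had 51.5 (67A), 86.1 (67B), 50.2 (67C), 58.0 (91A) and 46.3 CPM (91B). Only abx67B, pro139B and pro139C exceeded the highest control. Its fold was 1.16 (0.772 to 1.74, adjusted p = 0.919) and 1.19 (0.809 to 1.76, adjusted p = 0.752).

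By direction, 2 of 7 members lay above 0 in antibiotic versus control fish and 3 of 7 in probiotic versus control fish, against 53% and 50.7% of all tested genes. Between the treatments 4 of 7 lay above 0, against 51.5%. The median member log2 fold change was -0.06, -0.02 and 0.01 in these comparisons, beside 0.02, 0.0047 and 0.0089 over all genes. Groups did not overlap for 0 of 7 members in each, against 0.483%, 0.291% and 0.374% of all genes.

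Within a treatment, some members differed by more between the 2 title numbers than between treatments. Each title number held 2 or 3 fish, and all genes spread more widely there as well. The quartiles of their log2 fold change were -0.28 and 0.25 (ctl12 versus ctl35), -0.31 and 0.29 (abx67 versus abx91) and -0.24 and 0.33 (pro115 versus pro139). They were -0.16 and 0.20 in antibiotic versus control, -0.21 and 0.22 in probiotic versus control and -0.16 and 0.19 in antibiotic versus probiotic fish. No member was called between title numbers either. There edgeR and limma-voom called 0% of all genes and DESeq2 called 0.0529% (ctl12 versus ctl35), 0.208% (abx67 versus abx91) and 0.321% (pro115 versus pro139). In probiotic fish, anpepa stood at 808, 651 and 640 CPM in the pro115 fish (A to C) and at 1228, 1013 and 1268 CPM in the pro139 fish. The adhesion gene cdhr2 stood at 370, 378 and 541 CPM against 820, 912 and 547 CPM, and alpi.2 at 49.2, 45.9 and 32.9 CPM against 54.5, 76.5 and 101 CPM. For all 3 genes every pro115 fish lay below every pro139 fish, which holds in that direction for 8.13% of all genes; in either direction 15% of all genes did not overlap. The fold was 0.598 (0.382 to 0.936, adjusted p = 0.495) for anpepa, 0.565 (0.329 to 0.970, adjusted p = 0.514) for cdhr2 and 0.551 (0.336 to 0.905, adjusted p = 0.491) for alpi.2 by edgeR. These 3 of 7 members passed at an unadjusted p under 0.05, against 9.55% of all genes, and 7 of 7 lay below 0, against 47.6%. The count of 3 depended on single fish, and the number of all genes at that level, 2887 of 30221 in the main fit, moved too. The member count was 2 without pro115A (1980 of 29982 genes), pro115C (4631 of 30111) or pro139B (2855 of 30101). It was 1 without pro115B (1978 of 30103 genes), pro139A (2056 of 29996) or pro139C (1958 of 30025).

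The index names in the titles end in a letter and a number, and that number is called plate column here. The labels do not say that it marks a place on a plate. The title number partly follows it, and so does the treatment. Columns 10 and 11 held 0 antibiotic fish and column 12 held 3. With plate column as a covariate the median member log2 fold change was -0.19 in antibiotic and 0.15 in probiotic versus control fish. It was -0.06 and -0.02 without the covariate. Genes at an unadjusted p under 0.05 numbered 1900 (antibiotic versus control), 4445 (probiotic versus control) and 4821 (between treatments), beside 1877, 2935 and 1827. In pro115 versus pro139 fish the log2 fold changes shrank with the covariate to -0.28 for anpepa, -0.25 for cdhr2 and -0.50 for alpi.2. They were -0.74, -0.82 and -0.86 without it. In this comparison 0 of 7 members passed at an unadjusted p under 0.05 with the covariate. The number of all genes at that level fell as well, to 984 of 30221 genes from 2887 in the main fit. Whether the members fell more than other genes was not tested. The pro115 and pro139 fish shared only plate column 11. The plate column of abx67C was read from 1 of its 2 index names, which differ, and every plate-column value here rests on that reading. Summed smooth muscle genes stood at 2095, 1405 and 1508 CPM in the pro115 fish and at 1460, 1618 and 923 CPM in the pro139 fish, and pro139C also held 353 CPM of 3 exocrine pancreas genes against at most 62.2 in the other probiotic fish. Their part in the difference was not tested.

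In antibiotic fish, anpepa was above both abx91 fish in all 3 abx67 fish. Its fold was 2.07 (1.24 to 3.46, adjusted p = 0.623 by edgeR), from means of 1083 and 523 CPM. It was the 1 of 7 members at an unadjusted p under 0.05, against 7.15% of all genes. With plate column as a covariate 2 of 7 members passed at that level. The number of all genes there rose as well, to 4402 of 30221 genes from 2162 in the main fit. Both abx91 fish and abx67B were in plate column 12. The adhesion gene cdhr2 was also higher in every abx67 fish, with a fold of 1.505 (0.817 to 2.77, adjusted p = 0.736). These were 2 of 7 members without overlap, against 23.1% of all genes, and 6 of 7 lay above 0, against 50.3%. The fish abx91A weighed on this: it had the lowest anpepa level, and the log2 fold change of anpepa, 1.05, was 0.64 without it and 1.60 without abx91B. Either omission left 1 abx91 fish, which was assumed to vary like the other groups. In controls 0 of 7 members passed at an unadjusted p under 0.05, against 6.15% of all genes, and the largest log2 fold change was that of anpepa, 0.52 ± 0.30 (SE) in ctl12 over ctl35 (adjusted p = 0.721). There 5 of 7 members lay above 0, against 48.8% of all genes, and 0 of 7 did not overlap, against 13.1%.

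**Figure D2:**
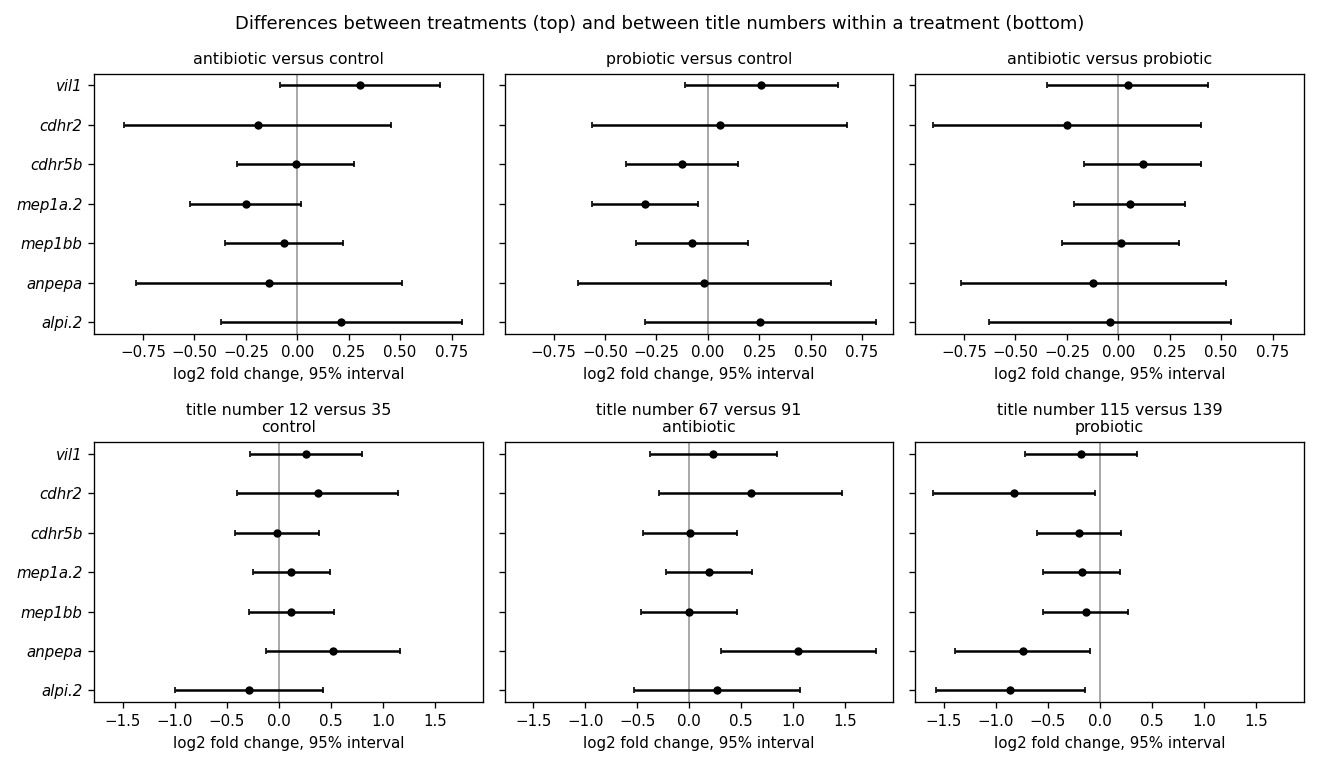
Log2 fold change (point) with its 95% interval (bar, edgeR) for each of the 7 genes, between treatments in the top row and between the title numbers of a treatment in the bottom row, whose axis is wider. In the top row only the interval of mep1a.2 in probiotic versus control fish leaves out 0, from -0.56 to -0.05; in the bottom row those of anpepa in antibiotic fish and of cdhr2, anpepa and alpi.2 in probiotic fish do.

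Across the 17 fish the members moved together only in part. Of 21 pairs, 20 had a Pearson r of log2 CPM above 0, with a median r of 0.20, and 0 passed an adjusted p under 0.05 (100000-resample permutation, adjusted over the 21 pairs). The highest r was between cdhr2 and anpepa, 0.60 (Spearman rho 0.50, permutation p = 0.0105, adjusted p = 0.115). The tip partners cdhr2 and cdhr5b had r = 0.56 (rho 0.62, permutation p = 0.0181, adjusted p = 0.115), and vil1 and cdhr2 had r = 0.56 (rho 0.39, permutation p = 0.0198, adjusted p = 0.115). Without the 2 fish farthest from the median of the gene named first in each pair, these became 0.42, 0.58 and 0.39. Of the other tested genes 3.34% had a higher r with cdhr2 than anpepa did and 8.53% a higher r with anpepa than cdhr2 did. For cdhr2 and cdhr5b these shares were 4.69% and 2.21%, and for vil1 and cdhr2 they were 15.3% with vil1 and 4.83% with cdhr2.

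The 2 meprin subunit genes had r = 0.55 (rho 0.56, permutation p = 0.0218, adjusted p = 0.115), and 0.53 without the 2 fish farthest from the mep1a.2 median. Of the other tested genes 1.99% had a higher r with mep1a.2 and 1.83% a higher r with mep1bb. Villin and mep1a.2 formed the 1 pair below 0, with r = -0.37 (rho -0.27, permutation p = 0.146, adjusted p = 0.384), and 90.0% of genes had a higher r with mep1a.2 and 73.2% a higher r with vil1. After subtraction of group means, r was -0.15 for vil1 with mep1a.2 (rho -0.04). It was 0.59 for the meprin pair and for cdhr2 with anpepa, and 0.65 for cdhr2 with cdhr5b and for vil1 with cdhr2. After subtraction of plate column means, r was -0.60 for vil1 with mep1a.2 and 0.64 for the meprin pair. It was 0.53 for cdhr2 with anpepa, 0.40 for cdhr2 with cdhr5b and 0.63 for vil1 with cdhr2. Plate columns held 3 to 6 fish.

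**Figure D3:**
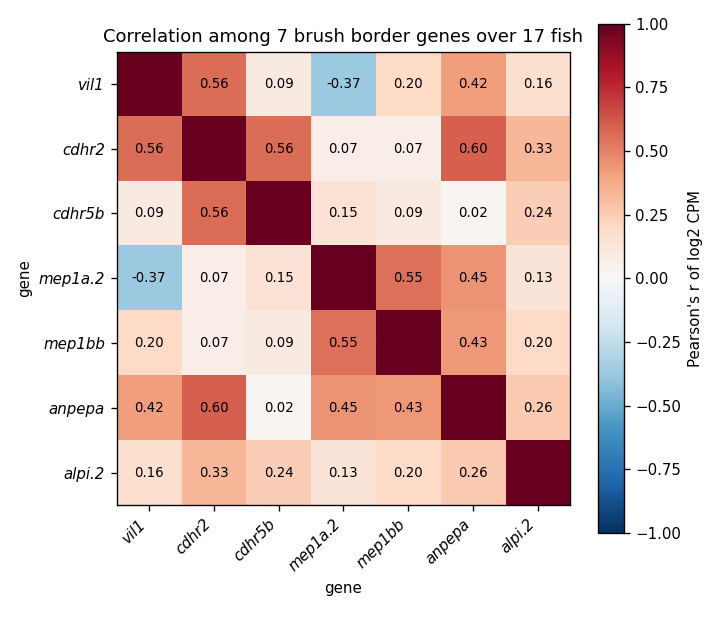
Pearson's r of log2 CPM for each pair of the 7 genes over 17 fish, with colour from -1 to 1. The warmest cells are those of cdhr2 with anpepa, cdhr5b and vil1 and of the 2 meprin genes; vil1 with mep1a.2 is the 1 pair below 0.

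Levels of other cell types were set beside the members over 28 relations, with smooth muscle, proliferation, leukocyte and liver scores. In them the 2 farthest fish are those farthest from the median of the score. Against the mean log2 CPM of 3 smooth muscle genes, anpepa had r = -0.67 (rho -0.65, permutation p = 0.00356, adjusted p = 0.0647; -0.67 without the 2 farthest fish) and vil1 had r = -0.61 (rho -0.70, adjusted permutation p = 0.0847 for r and 0.0337 for rho; r = -0.49 without the 2 farthest fish). Against 8 proliferation genes vil1 had r = 0.65 (rho 0.78, adjusted permutation p = 0.0647 for r and 0.0109 for rho), and 0.59 without the 2 farthest fish. After subtraction of plate column means these r were -0.68, -0.54 and 0.56. Both r of vil1 lie within the 5th to 95th percentile of its r with all other tested genes, -0.69 to 0.74, and that of anpepa lies just inside its own, -0.68 to 0.66. Those percentiles are of r with single genes, whereas the scores average 3 or 8 genes, so they are not a like background. For the other members r with the smooth muscle score was -0.55 for mep1bb, -0.49 for cdhr2, -0.47 for alpi.2, -0.13 for mep1a.2 and 0.07 for cdhr5b, with adjusted permutation p from 0.119 to 0.919. Without the 2 farthest fish that of alpi.2 was -0.01 and that of cdhr2 -0.30. With the proliferation score r was 0.57 for anpepa, 0.18 for cdhr2, 0.14 for mep1bb, -0.01 for alpi.2, -0.13 for mep1a.2 and -0.44 for cdhr5b. Their adjusted permutation p ran from 0.118 to 0.962, and the relation of vil1 was thus not shared by all members. With the leukocyte score r ran from -0.39 for vil1 to 0.50 for mep1a.2. With the liver score it ran from 0.01 for mep1bb to 0.31 for anpepa. Adjusted permutation p for r was at least 0.181 in both. The fish ctl35C had the highest smooth muscle sum, 3602 CPM, and the lowest vil1 level of the study, while abx91A, lowest in anpepa, had 2147 CPM. The part of muscle RNA in the members' levels was not tested beyond a fit that carried the muscle score as a covariate. In it mep1a.2 stood at a log2 fold change of -0.41 in probiotic and -0.30 in antibiotic versus control fish. Over 29 alternatives, this fit among them, vil1 stayed between 0.16 and 0.40 in antibiotic and between 0.11 and 0.37 in probiotic versus control fish. For anpepa these ranges were -0.46 to 0.05 and -0.38 to 0.15.

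**Figure D4:**
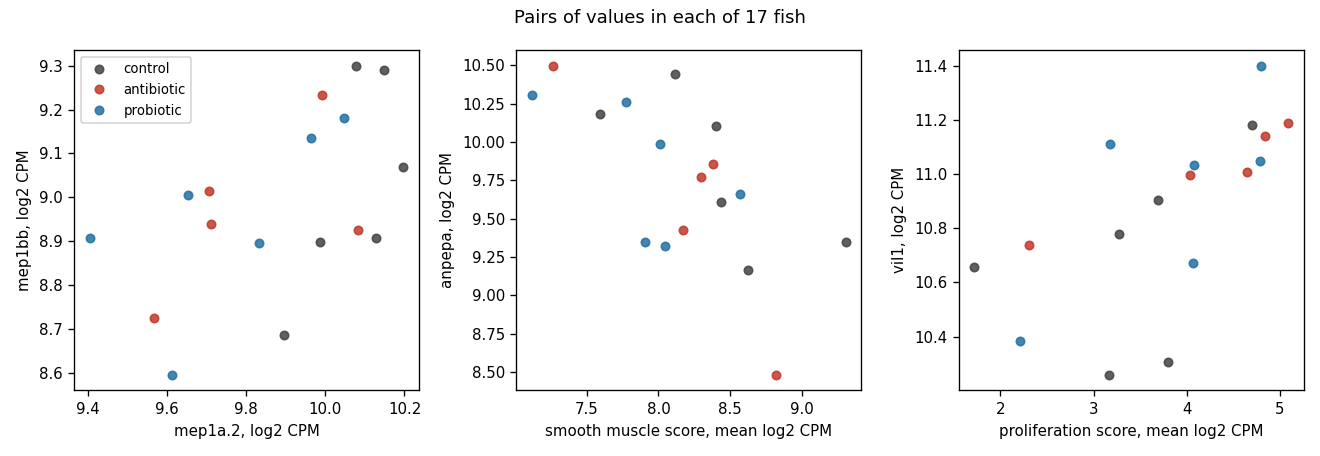
Log2 CPM of mep1bb against mep1a.2 (left), of anpepa against the mean log2 CPM of 3 smooth muscle genes (middle) and of vil1 against that of 8 proliferation genes (right), with 1 point per fish coloured by treatment. The points rise at r = 0.55 on the left, fall at r = -0.67 in the middle, where abx91A is the lowest point, and rise at r = 0.65 on the right.

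The rest of the brush border was read from lists of symbols. Among 15 tested structural genes, of which vil1, cdhr2 and cdhr5b are 3, 0 passed the adjusted test in any treatment comparison. Against controls 10 lay above 0 and 5 below in antibiotic fish (median log2 fold change 0.03), and 7 above and 8 below in probiotic fish (median -0.06), and 10 above and 5 below between the treatments (median 0.12). By TPM vil1 and cdhr2 led this list, followed by calml4a, a light chain of the tip adhesion complex in mammals, at 355 TPM, then cdhr5b and the scaffold anks4b at 273 TPM. By mean CPM cdhr5b (679) lay above cdhr2 (559) and calml4a stood at 65.4, so this order rests on the deposited exonic lengths. The gene of smallest p in probiotic fish was baiap2l2b, of a family of membrane-bending proteins, at 3.59 ± 0.681 CPM (SD, n = 6) against 5.38 ± 0.867 (n = 6) in controls and 5.47 ± 0.842 (n = 5) in antibiotic fish. Its adjusted p was 0.446 against controls and 0.703 between the treatments. The scaffold gene slc9a3r1a had the smallest p in antibiotic versus control fish, at 112 ± 22.2 against 87.7 ± 26.6 CPM (adjusted p = 0.822).

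Among 13 tested hydrolases of 14 in the table, which include the 4 enzyme members, 0 passed by edgeR. Against controls 5 lay above 0 and 8 below in both antibiotic (median -0.09) and probiotic fish (median -0.08), and 6 above and 7 below between the treatments (median -0.04). Mean levels ran from 692 TPM for mep1a.2 through 367 for xpnpep2, an aminopeptidase acting before proline, 309 for naaladl1, 173 for trehalase (treh) and 154 for sucrase-isomaltase (si) to 1.10 for lactase (lct). The smallest p was that of treh, which cleaves trehalose, in both comparisons with controls. Its level was 183 ± 25.7 CPM (n = 5) in antibiotic fish and 209 ± 18.5 (n = 6) in probiotic fish against 261 ± 34.97 (n = 6) in controls. Every antibiotic fish lay below every control, and for 0.483% of all tested genes these 2 groups did not overlap in either direction. The log2 fold change was -0.51 ± 0.12 (SE, adjusted p = 0.698) and -0.32 ± 0.11 (adjusted p = 0.450) by edgeR. DESeq2 gave an adjusted p of 0.0185 for the antibiotic comparison, where it called 0.086% of all genes.

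Among 8 enterocyte transcription factors 0 passed, with 3 above 0 and 5 below in either treatment against controls. The factor elf3 stood at 232 ± 41.4 CPM in antibiotic fish against 303 ± 68.2 in controls (adjusted p = 0.806), and creb3l3a, a regulator of lipid metabolism genes, at 215 ± 78.8 CPM in probiotic fish against 313 ± 65.9 (adjusted p = 0.454). Of lysosome-rich enterocyte genes, which serve uptake of luminal protein, 11 of 12 lay below 0 in antibiotic and 9 of 12 in probiotic fish against controls, with median log2 fold changes of -0.04 and -0.09, and 0 passed. The smallest p there was that of hexb, a lysosomal hexosaminidase, at 4968 ± 477 and 5192 ± 446 CPM against 6500 ± 968 in controls (adjusted p = 0.734 and 0.452). Absorptive enterocyte genes split evenly, 3 above and 3 below 0 in both.

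Of the lists for other cells and tissues 0 genes passed as well. In antibiotic versus control fish the numbers above 0 were 2 of 4 goblet, 5 of 8 enteroendocrine, 0 of 4 erythrocyte, 3 of 7 leukocyte, 0 of 3 exocrine pancreas, 0 of 3 smooth muscle and 11 of 11 liver genes. In probiotic versus control fish they were 3 of 4, 7 of 8, 1 of 4, 3 of 7, 2 of 3, 0 of 3 and 10 of 11. The 8 proliferation genes lay above 0 in both. Liver genes summed to 6.75 to 145 CPM in antibiotic fish, 7.64 to 72.8 in probiotic fish and 7.73 to 17.2 in controls, far below the members except alpi.2.

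The genes whose levels followed the mean standardised profile of the 7 members most closely were zgc:123258 (r = 0.90, rho 0.89), ctsa (r = 0.89, rho 0.83), abcb4 (r = 0.88, rho 0.78), cubn (r = 0.87, rho 0.76) and si:ch211-266g18.9 (r = 0.87, rho 0.88), over 17 fish. Over 30214 other tested genes r ran from -0.61 at the 5th percentile through -0.02 at the median to 0.58 at the 95th. ctsa encodes a lysosomal carboxypeptidase, cubn an endocytic receptor and abcb4 a phospholipid transporter. All 5 kept an r of at least 0.80 without the 2 fish farthest from the median of the profile. Each member is itself part of the profile, and its r with it ran from 0.47 for mep1a.2 to 0.76 for cdhr2 and anpepa. Without the 2 farthest fish the range was 0.24 for cdhr5b to 0.87 for anpepa, with mep1a.2 at 0.57, so the lower end of this order depends on those fish.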

How the data were processed

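The values are raw counts per gene in a table the authors deposited, with the exonic length of each gene. The tools were Trimmomatic 0.38, HISAT2 and featureCounts, per the submitters' processing notes. The sources used here do not give the build, the strandedness or the handling of multiply mapped reads. Per the labels, TRIzol total RNA was sequenced as paired ends on a NovaSeq. An entry without an identifier, 0.155 to 0.523% of counts, was left out. Symbols of 6 members and of other LOC entries were looked up in RefSeq gene names of assembly Otsh_v2.0, which served for nothing else. Of 38153 LOC identifiers 30285 were found there and 6084 were given a symbol.

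Tests were edgeR 4.0.16 robust quasi-likelihood F-tests (2-sided, TMM, filterByExpr) in R 4.3.3 on all 17 libraries, with Benjamini-Hochberg adjustment over 30221 genes and calls at an adjusted p under 0.05. A second fit used the 6 title numbers as its factor. SE is the size of the log2 fold change over the root of F. CPM is TMM-normalised; log2 CPM used a prior count of 2, and TPM used the deposited lengths. Alternatives included limma 3.58.1 (voom) and DESeq2 1.42.0. Scripts were tested on simulated data. Members and lists were chosen with earlier results of these data known. From each list of symbols the gene of smallest p may be named in each comparison, and the 5 genes most like the members' mean profile are named. Genes placed by TPM within a list, the meprin ratio, and the fish singled out were chosen after their values were seen. The labels do not say whether fish were kept apart, so p-values and intervals measure the spread between these samples.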

Additional observations from a re-analysis of the deposited data

How the results depend on the processing

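No member was called in any of the 6 comparisons under any alternative run. Of 1155 recomputed member values 87 changed sign, all uncalled. For mep1a.2 the log2 fold change stayed between -0.41 and -0.24 in probiotic and between -0.35 and -0.19 in antibiotic versus control fish. No paired analysis was possible because no title number is shared between groups. Called genes over the table rose from 0 with DESeq2 to 26 (antibiotic versus control), 34 (probiotic versus control), 23 (between treatments), 16 (12 versus 35), 63 (67 versus 91) and 97 (pro115 versus pro139). They were 1 with plate column as a covariate (antibiotic versus control), 1 with only the 2 groups compared (probiotic versus control), and 3 (12 versus 35), 4 (67 versus 91) and 3 (pro115 versus pro139) without abx67C, abx91B, pro139B and pro139C. Leaving out 1 fish gave 0 to 1 (probiotic versus control), 0 to 56 (67 versus 91) and 0 to 29 (pro115 versus pro139). The 56 came without abx91B, which left abx91A alone in its arm, and the 4 and 3 calls without the 4 fish in those 2 comparisons rest on abx91A alone and pro139A alone in 1 arm. A lone fish was assumed to vary like the other groups. The 29 came without pro139B. The causes were not tested.

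Log2 fold changes that changed sign are given by comparison. Antibiotic versus control: cdhr5b was 0.0045 with limma-voom and with the title number as a random effect and 0.023 without ctl12A and pro139A, anpepa 0.0070 without those 2 fish and cnn1b 0.028 with plate column. Probiotic versus control: anpepa was 0.00035 with limma-voom, 0.00036 with the random effect, 0.15 with plate column and 0.035 without ctl12A and pro139A. With the smooth muscle score cdhr2 was -0.17, alpi.2 -0.0075 and cpa5 -0.42. Without abx67C, abx91B, pro139B and pro139C cdhr2 was -0.12, alpi.2 -0.14 and cpa5 -0.35.

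Between treatments mep1bb was -0.0065 with DESeq2 and with RLE factors, -0.00021 at a mean CPM of at least 1, -0.015 with no filter, -0.0057 with only the 2 groups, -0.16 with plate column and -0.0012 without ctl12A and pro139A. With plate column vil1 was -0.18 and mep1a.2 -0.071. For alpi.2 it was 0.018 with limma-voom, 0.016 with the random effect, 0.095 with the smooth muscle score and 0.49 without the 4 fish, and anpepa was 0.014 and 0.081 in the last 2. For 67 versus 91 mep1bb was 0.014 with DESeq2 and with RLE, 0.022 at a mean CPM of at least 1, 0.0049 with no filter and 0.22 with plate column, and cdhr5b was -0.11 with plate column, -0.0054 with the upper quartile and -0.062 without the 4 fish. For pro115 versus pro139 mep1bb was 0.0021 without the 4 fish.

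Leaving out 1 fish at a time, in antibiotic versus control fish cdhr5b ran from -0.070 to 0.032 and anpepa from -0.42 to 0.047. In probiotic versus control fish cdhr2 ran from -0.11 to 0.25, anpepa from -0.13 to 0.13 and cpa5 from -0.50 to 1.42. Between treatments vil1 ran from -0.058 to 0.13, mep1a.2 from -0.034 to 0.11, mep1bb from -0.070 to 0.068, anpepa from -0.40 to 0.065, alpi.2 from -0.23 to 0.16 and f9 from -0.28 to 3.91. For 12 versus 35 cdhr5b ran from -0.18 to 0.11 and mep1bb from -0.00013 to 0.30. For 67 versus 91 cdhr5b ran from -0.047 to 0.087, mep1bb from -0.14 to 0.11 and alpi.2 from -0.031 to 0.43. For pro115 versus pro139 vil1 ran from -0.53 to 0.011 and cdhr5b from -0.33 to 0.014.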

Other observations

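The TPM ratio of vil1 to mep1a.2, chosen after the values were seen and given without a test, was 1.01 ± 0.239 (SD, n = 6; 0.734 to 1.40) in controls, 1.51 ± 0.273 (n = 5; 1.22 to 1.93) in antibiotic fish and 1.56 ± 0.583 (n = 6; 0.867 to 2.59) in probiotic fish. By this measure vil1 was above mep1a.2 in 4 of 6 control, 5 of 5 antibiotic and 5 of 6 probiotic fish, and the ranges of the ratio overlapped.

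The mean standardised log2 CPM of the 7 members was lowest in ctl35C (-1.17) and pro115A (-0.92) and highest in abx67B (0.71), ctl35A (0.66) and pro139B (0.66).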
